A study of Homo sapiens with 12 samples.

Results

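Oncostatin M and the genes of interleukin 6 family signalling were followed in U937 cells, a human line of myelomonocytic origin. The set holds 10 genes named by symbol, out of 19775 genes on the array: the ligands OSM, LIF and IL6, the receptor subunits IL6R, IL6ST and OSMR, the transcription factor STAT3, and the feedback inhibitors SOCS1, SOCS3 and CISH. All 10 were measured, and each was represented by the probe set (the array feature for a transcript) with the highest mean over 12 arrays among those that name a single gene. Their other probe sets served as a check.

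The 12 arrays came from 4 groups of 3: EVI1-labelled cells in TPA, empty vector cells in TPA, EVI1-labelled cells in ethanol and empty vector cells in ethanol. Cells carried either a vector that expresses EVI1, a zinc finger transcription factor of the MECOM locus, or the same kind of vector without it. The phorbol ester TPA, an activator of protein kinase C that turns U937 cells toward a macrophage-like state, was given at 50 ng/ml for 24 h, and ethanol is its solvent. The labels call the samples biological replicates but do not say whether each came from its own transduction, so p-values between the populations may cover the spread between cultures alone.

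Cytokines of the interleukin 6 family share the receptor subunit gp130, encoded by IL6ST. Each ligand recruits it together with a partner: IL6 through the IL6 receptor, LIF through the LIF receptor, and oncostatin M through either the LIF receptor or the oncostatin M receptor. The engaged receptor activates JAK kinases, which phosphorylate STAT3, and STAT factors then switch on SOCS3 and SOCS1, whose products dampen the same receptors. CISH encodes a further inhibitor of cytokine receptor signalling. Macrophages and monocytes are known producers of oncostatin M, and OSM and CISH are known targets of the related factor STAT5.

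Values are log2 probe set levels. Differences are log2 with the standard error (SE) of a limma fit over all 12 arrays, group levels are means ± SD with n = 3, and p-values are adjusted over all genes (Benjamini-Hochberg, called under 0.05). The array medians lay between 5.07 and 5.11. A group mean below 5.07 is not shown to be above background here, and differences at such levels have an uncertain size. The 5 probe sets for MECOM read between 2.59 and 3.32 on all arrays and did not pass between the populations in TPA (smallest adjusted p = 0.102) or in ethanol (0.88). Whether they detect the sequence in the vector is not known here, so expression of EVI1 is not shown and the population is called EVI1-labelled. Of 9 measured myeloid markers, 7 or 8 read at or above 5.07 in each group, among them SPI1, CSF1R and PTPRC. This level did not single out the myeloid list. In each group 2 of 2 erythroid, 2 of 4 lymphoid and 3 of 6 epithelial and fibroblast genes also read at or above 5.07. So did 4 of 5 megakaryocyte genes in TPA and 3 of 5 in ethanol. Of the 17 measured markers of other lineages, the 4 lymphoid and the 6 epithelial and fibroblast genes gave no call with TPA. VWF, 1 of 5 megakaryocyte genes, was higher with TPA in each population, and 1 of 2 erythroid genes was higher with TPA in empty vector cells. For ACTB, the 3′ probe set exceeded the 5′ one by an amount that moved with the treatment. A larger excess goes with less intact RNA. This excess was 1.25 ± 0.03 in EVI1-labelled cells and 1.36 ± 0.25 in empty vector cells in TPA, against 1.91 ± 0.16 in EVI1-labelled cells and 1.78 ± 0.07 in empty vector cells in ethanol. For GAPDH the excess was smaller and moved less, at 0.34 ± 0.06 in EVI1-labelled cells and 0.46 ± 0.13 in empty vector cells in TPA. In ethanol it was 0.55 ± 0.10 in EVI1-labelled cells and 0.59 ± 0.21 in empty vector cells. The treatments overlapped in empty vector cells but not in EVI1-labelled cells (0.30 to 0.41 in TPA, 0.44 to 0.62 in ethanol). The part of RNA integrity in the TPA results below was not tested. In these bulk samples fewer cells of a type and less RNA per cell cannot be told apart.

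**Figure D1:**
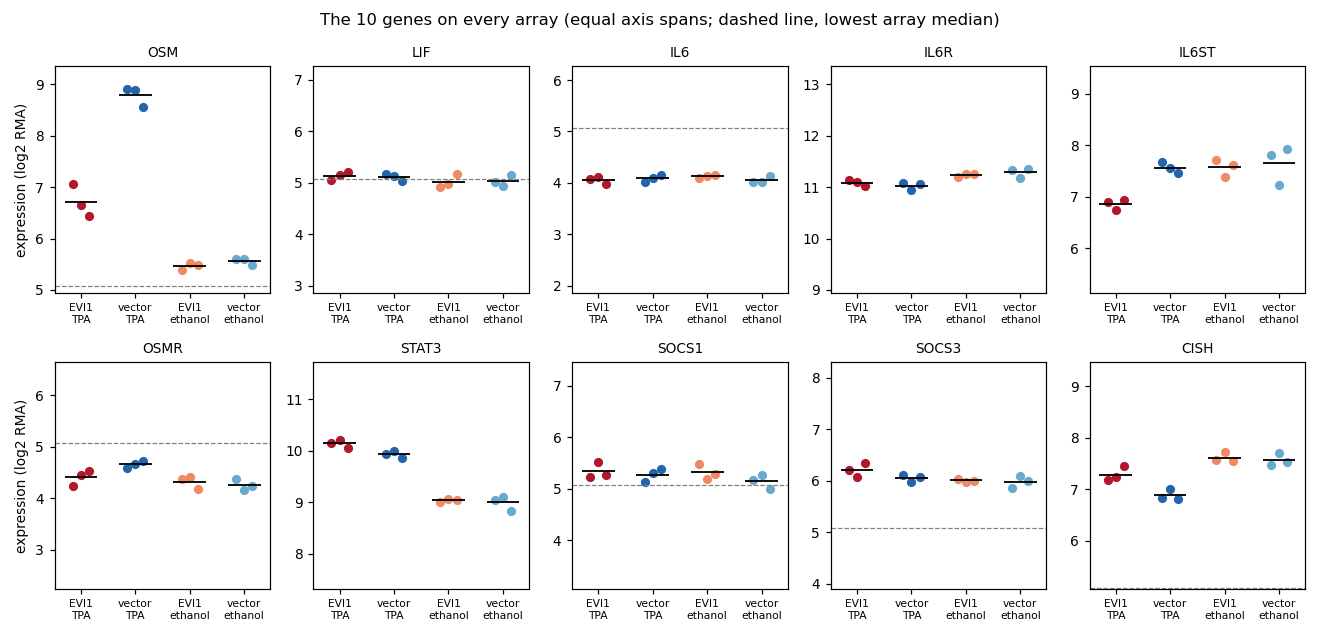
Level of each of the 10 genes on every array (y axis, log2 RMA expression, the same span in each panel) in the 4 groups (x axis). Points are arrays, bars are group means and the dashed line is the lowest array median, 5.07. OSM separated into 3 levels, with empty vector cells in TPA highest, while LIF stayed between 4.92 and 5.20 and IL6 between 3.97 and 4.16.

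OSM, the ligand gene, showed the largest response to TPA among the 10 genes by their brightest probe sets, and this response was much smaller in EVI1-labelled cells. OSM read 7.05, 6.65 and 6.43 in EVI1-labelled cells in TPA, against 5.38, 5.52 and 5.49 in EVI1-labelled cells in ethanol. Its levels in empty vector cells were 8.91, 8.88 and 8.55 in TPA, against 5.61, 5.60 and 5.49 in ethanol. The TPA and ethanol arrays did not overlap in either population, and all 3 EVI1-labelled arrays in TPA lay between the ethanol arrays and the empty vector arrays in TPA. OSM rose with TPA by 1.25 ± 0.14 (2.37-fold, adjusted p = 3.79e-06) in EVI1-labelled cells and by 3.21 ± 0.14 (9.27-fold, adjusted p = 2.55e-10) in empty vector cells. The response of EVI1-labelled cells minus that of empty vector cells was -1.97 ± 0.20 (adjusted p = 2.64e-04), with a 95% interval from -2.39 to -1.54.

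Between the populations, OSM differed in TPA and not detectably in ethanol. In TPA it averaged 6.71 ± 0.31 in EVI1-labelled cells and 8.78 ± 0.20 in empty vector cells (SD, n = 3 each), a difference of -2.07 ± 0.14 (0.238-fold, adjusted p = 2.06e-06). In ethanol it averaged 5.46 ± 0.07 in EVI1-labelled cells and 5.57 ± 0.07 in empty vector cells, and the difference of -0.10 ± 0.14 (adjusted p = 0.864) had a 95% interval from -0.40 to 0.20. Some markers of monocyte and macrophage maturation moved with OSM between the populations in TPA, and most did not. Of the 9 myeloid markers, 3 were lower in EVI1-labelled cells in TPA, where 5.3% of all genes were. None was higher, where 5.9% of all genes were. CD14, the monocyte coreceptor for lipopolysaccharide, averaged 5.05 in EVI1-labelled cells and 6.75 in empty vector cells in TPA, a difference of -1.70 (adjusted p = 8.25e-05), and was the one marker called for the difference between the responses (-2.06, adjusted p = 0.00179). ITGAM, the integrin chain CD11b, differed in TPA by -1.50 (adjusted p = 2.24e-04) and FCGR1A, a dim Fc receptor gene, by -0.47 (adjusted p = 0.0275). SPI1, CD4, LYZ, MPO, CSF1R and PTPRC were not called between the populations in TPA. VWF, a megakaryocyte and endothelial gene, was 1 of 5 megakaryocyte markers called there, lower in EVI1-labelled cells (-0.40, adjusted p = 0.0427). In ethanol 1 of the 9 myeloid markers was called between the populations, MPO, which was higher in EVI1-labelled cells (0.84, adjusted p = 0.0121). The part of these markers in the OSM result was not tested.

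The second OSM probe set, 214637_at, had the same order of the populations in TPA over a narrower range. It read 5.98, 6.06 and 5.87 in EVI1-labelled cells in TPA, against 6.47, 6.43 and 6.50 in empty vector cells in TPA, and between 5.61 and 5.93 on the 6 ethanol arrays. The 2 populations did not overlap in TPA. With p-values adjusted over all 41091 single-gene probe sets, its rise with TPA was 0.22 ± 0.10 (adjusted p = 0.122) in EVI1-labelled cells and 0.75 ± 0.10 (adjusted p = 2.59e-05) in empty vector cells. The populations differed in TPA by -0.50 ± 0.10 (adjusted p = 0.0065), but the difference between the responses, -0.53 ± 0.14, missed the threshold (adjusted p = 0.1), though it passed once the ethanol array of empty vector replicate 2 was left out (-0.635, adjusted p = 0.0447). The call on the difference in OSM response therefore rests on the brighter probe set.

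LIF and IL6, the other ligand genes among the 10, gave no call in any comparison. LIF, which encodes leukaemia inhibitory factor, lies next to OSM among the measured protein-coding genes of chromosome 22. It read between 4.92 and 5.20 over all 12 arrays, close to the array medians, and IL6 read between 3.97 and 4.16, below them. For LIF the change with TPA was 0.12 ± 0.09 (95% interval -0.08 to 0.31, adjusted p = 0.365) in EVI1-labelled cells and 0.08 ± 0.09 (-0.11 to 0.27, adjusted p = 0.534) in empty vector cells. For IL6 it was -0.08 ± 0.08 (-0.24 to 0.09, adjusted p = 0.502) in EVI1-labelled cells and 0.03 ± 0.08 (-0.13 to 0.20, adjusted p = 0.78) in empty vector cells. The upper ends of these intervals lie far below the rises of OSM, although probe sets near background compress changes. CASTOR1, on the other side of OSM, also gave no call with TPA, at 0.16 in EVI1-labelled cells (adjusted p = 0.333) and 0.18 in empty vector cells (adjusted p = 0.23).

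**Figure D2:**
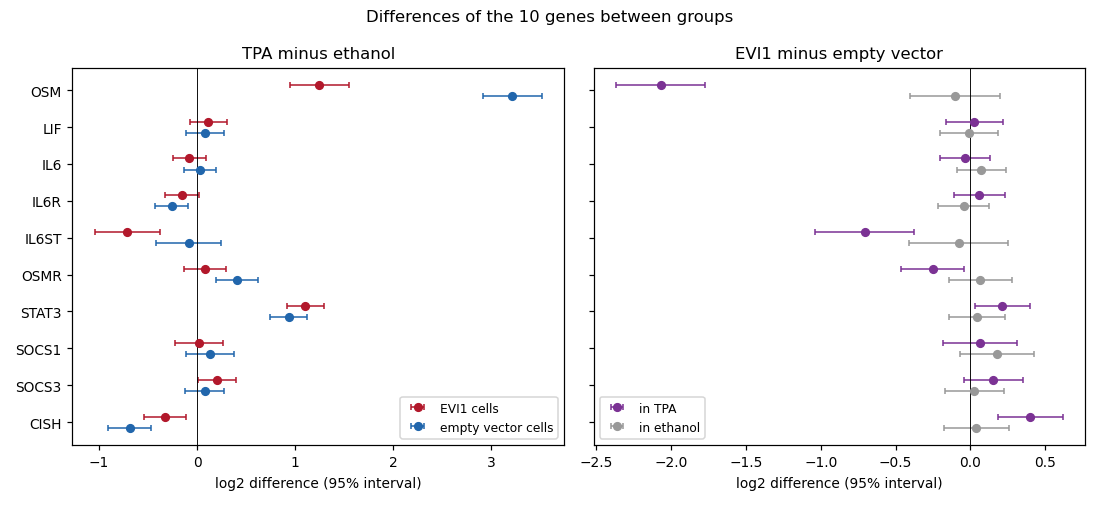
Differences of the 10 genes (x axis, log2, with 95% intervals of the limma fit), on the left TPA minus ethanol in EVI1-labelled and empty vector cells, on the right EVI1-labelled minus empty vector cells in TPA and in ethanol. OSM lay at 1.25 and 3.21 for TPA in EVI1-labelled and empty vector cells and at -2.07 between the populations in TPA.

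IL6ST, which encodes the shared signalling subunit gp130, was lower in EVI1-labelled cells in TPA than in each group it was compared with. It read 6.90, 6.75 and 6.93 in EVI1-labelled cells in TPA, against 7.68, 7.56 and 7.46 in empty vector cells in TPA. In ethanol it read 7.72, 7.38 and 7.61 in EVI1-labelled cells and 7.81, 7.22 and 7.92 in empty vector cells. The 3 EVI1-labelled arrays in TPA lay below all 9 others. IL6ST fell with TPA by 0.71 on the log2 scale in EVI1-labelled cells (-0.71 ± 0.15, 0.611-fold, adjusted p = 0.00164) and was at -0.08 ± 0.15 (adjusted p = 0.725, 95% interval -0.42 to 0.25) in empty vector cells. In TPA the populations differed by -0.71 ± 0.15 (adjusted p = 0.00839). The difference between the responses, -0.63 ± 0.22, missed the threshold (adjusted p = 0.21), so the fall is not shown to differ between the populations.

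IL6ST had 6 other probe sets, all with group means below 5.07 in every group. Of these, 212196_at was called with TPA in EVI1-labelled cells (-0.26 ± 0.09, adjusted p = 0.0324) and between the populations in TPA (-0.46 ± 0.09, adjusted p = 0.00423), both lower as for the brightest probe set. Unlike that one (-0.08 ± 0.15), 212196_at also lay lower in EVI1-labelled cells in ethanol without overlap, though not called (-0.34 ± 0.09, adjusted p = 0.0674). Its difference between the responses was -0.12 ± 0.12 (adjusted p = 0.815). The other 5 gave no call in these comparisons. Over the median of its 7 probe sets neither IL6ST call was kept, at -0.15 (adjusted p = 0.23) for TPA in EVI1-labelled cells and 0.013 (adjusted p = 0.966) between the populations in TPA. That median was called lower with TPA in empty vector cells (-0.24, adjusted p = 0.0449).

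IL6R encodes the ligand-binding IL6 receptor, and its brightest probe set read high in every group with small shifts. It read 11.14, 11.09 and 11.02 in EVI1-labelled cells in TPA, against 11.20, 11.26 and 11.25 in EVI1-labelled cells in ethanol. In empty vector cells it read 11.08, 10.94 and 11.05 in TPA, against 11.33, 11.17 and 11.35 in ethanol. In both populations the TPA arrays lay below the ethanol arrays. The fall passed in empty vector cells (-0.26 ± 0.08, adjusted p = 0.0148) and the value in EVI1-labelled cells did not (-0.15 ± 0.08, adjusted p = 0.154). The difference between the responses was 0.11 ± 0.11 (adjusted p = 0.777). Leaving out replicate 2 of empty vector cells in TPA, or replicate 1 or 3 of empty vector cells in ethanol, took the adjusted p in empty vector cells to 0.0607, 0.0572 and 0.065. The probe set 205945_at was called lower with TPA in EVI1-labelled cells (-0.55 ± 0.19, adjusted p = 0.0367). It read 9.40, 9.46 and 8.53 there in TPA, with replicate 3 the lowest, against 9.77, 9.77 and 9.51 in ethanol. In empty vector cells its TPA arrays also lay below its ethanol arrays, without a call (-0.31 ± 0.19, adjusted p = 0.24). Its difference between the responses was -0.24 ± 0.27 (adjusted p = 0.829).

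OSMR, the oncostatin M receptor gene, read below 5.07 on all arrays, between 4.16 and 4.73. It was at 4.41 ± 0.15 in EVI1-labelled cells and 4.66 ± 0.07 in empty vector cells in TPA, against 4.33 ± 0.13 in EVI1-labelled cells and 4.26 ± 0.11 in empty vector cells in ethanol. OSMR rose with TPA in empty vector cells by 0.40 ± 0.10 (adjusted p = 0.00382) and was at 0.08 ± 0.10 (adjusted p = 0.585) in EVI1-labelled cells. Its other 2 probe sets gave no call, and the median of its 3 probe sets in empty vector cells was at 0.25 (adjusted p = 0.0993). LIFR, the LIF receptor gene, gave no call with TPA either, at 0.23 (adjusted p = 0.122) in EVI1-labelled cells and 0.16 (adjusted p = 0.295) in empty vector cells, with all group means below 5.07.

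STAT3, the transcription factor downstream of gp130, rose with TPA in both populations. It read 10.16, 10.21 and 10.06 in EVI1-labelled cells in TPA, against 9.01, 9.06 and 9.05 in EVI1-labelled cells in ethanol. For empty vector cells the levels were 9.94, 9.99 and 9.86 in TPA, against 9.05, 9.11 and 8.83 in ethanol. Every TPA array lay above every ethanol array. The rise was 1.10 ± 0.09 (2.15-fold, adjusted p = 1.13e-07) in EVI1-labelled cells and 0.93 ± 0.09 (1.91-fold, adjusted p = 5.21e-07) in empty vector cells. The difference between these responses was 0.17 ± 0.12 (adjusted p = 0.653, 95% interval -0.09 to 0.43), and the populations in TPA differed by 0.21 ± 0.09 (adjusted p = 0.152). The probe sets 208992_s_at and 225289_at were called higher with TPA in both populations as well, at 0.92 to 1.08 in EVI1-labelled cells and 0.59 to 0.78 in empty vector cells. The dim probe set 243213_at went the other way and was called lower in empty vector cells (-0.70 ± 0.17, adjusted p = 0.00486), with every group mean below 5.07.

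CISH, an inhibitor of cytokine receptor signalling that STAT5 induces, fell with TPA in both populations and was higher in EVI1-labelled cells than in empty vector cells in TPA. It read 7.17, 7.23 and 7.45 in EVI1-labelled cells in TPA, against 7.56, 7.72 and 7.55 in EVI1-labelled cells in ethanol. In empty vector cells it read 6.83, 7.01 and 6.81 in TPA, against 7.47, 7.71 and 7.53 in ethanol. The 3 EVI1-labelled arrays in TPA lay between the ethanol arrays and the empty vector arrays in TPA. CISH fell by 0.33 on the log2 scale (-0.33 ± 0.10, 0.797-fold, adjusted p = 0.0175) in EVI1-labelled cells and by 0.69 (-0.69 ± 0.10, 0.621-fold, adjusted p = 4.92e-05) in empty vector cells. In TPA it was higher in EVI1-labelled cells by 0.40 ± 0.10 (adjusted p = 0.0193), while the difference between the responses, 0.36 ± 0.14, missed the threshold (adjusted p = 0.288).

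Both other CISH probe sets were called lower with TPA in both populations, at -0.49 and -0.58 in EVI1-labelled cells and -0.92 and -0.74 in empty vector cells. Between the populations in TPA, 223377_x_at was called higher in EVI1-labelled cells (0.43 ± 0.11, adjusted p = 0.0295) and 223961_s_at was not (0.15 ± 0.13, adjusted p = 0.64). Single arrays decided some CISH calls. The fall in EVI1-labelled cells had an adjusted p of 0.0752 without replicate 1 and 0.0577 without replicate 2 of the TPA arrays of EVI1-labelled cells, and 0.0816 without replicate 2 of their ethanol arrays. The difference between the populations in TPA had one of 0.0592 without replicate 3 of EVI1-labelled cells, and of 0.0664 and 0.0716 without replicates 1 and 3 of empty vector cells.

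The start region of CISH is shown because it is dense in the motif that STAT factors bind. The window runs from 250 bases before the gene's start to 50 bases after it, at chr3:50611725-50612024 on the minus strand of GRCh38.p14, from RefSeq, 5′ to 3′. Capitals mark the matches to TTCNNNGAA, a motif that reads the same on both strands.
CISH: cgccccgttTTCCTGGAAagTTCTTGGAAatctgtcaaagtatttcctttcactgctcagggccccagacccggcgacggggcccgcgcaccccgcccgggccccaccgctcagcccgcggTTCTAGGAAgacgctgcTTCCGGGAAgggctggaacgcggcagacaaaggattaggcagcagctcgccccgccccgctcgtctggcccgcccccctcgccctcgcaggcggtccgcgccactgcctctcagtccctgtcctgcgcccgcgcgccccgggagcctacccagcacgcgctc
It holds 4 matches, TTCCTGGAA, TTCTTGGAA, TTCTAGGAA and TTCCGGGAA, which begin 241, 230, 129 and 112 bases before the start and do not overlap. Of 35116 windows of the same length, 2689 (7.66%) hold at least 1 match and 7 hold 4 or more. Of the 10 genes, 8 had a window in the table, and OSM and LIF had none. CISH was the one gene of the 8 with a match to this motif in the windows searched. SOCS3 had 2 windows, chr17:78360876-78361175 and chr17:78359618-78359917, and the bases between them were not searched. The AP-1 motif TGANTCA matched once each in IL6R, as TGAGTCA 37 bases after the start, and in OSMR, as TGATTCA 3 bases after it, and 7.71% of all windows hold it. The NF-kB motif, GGGA followed by any base and TTTCC, matched once in IL6, as GGGATTTTCC 73 bases before the start, and 0.558% of all windows hold it. Both strands were searched, and a match describes the letters and not a bound site.

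SOCS3, the main feedback inhibitor of gp130, gave different answers by probe set. Its brightest probe set, 206360_s_at, read 6.20, 6.07 and 6.35 in EVI1-labelled cells in TPA, against 6.11, 5.97 and 6.08 in empty vector cells in TPA. The 6 ethanol arrays lay between 5.85 and 6.09. The 3 EVI1-labelled arrays in TPA lay above the EVI1-labelled arrays in ethanol, and the other groups overlapped. No comparison was called on it. The change with TPA was 0.20 ± 0.09 (adjusted p = 0.0994) in EVI1-labelled cells, which passed without replicate 2 of their TPA arrays (0.27, adjusted p = 0.0402), and 0.08 ± 0.09 (adjusted p = 0.564) in empty vector cells.

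The SOCS3 probe set 227697_at, with the lowest mean of the 4, moved far more. It read 5.04, 4.81 and 5.40 in EVI1-labelled cells in TPA, against 4.10, 4.24 and 3.81 in empty vector cells in TPA. In ethanol it read 3.29, 3.38 and 3.21 in EVI1-labelled cells, against 3.36, 3.53 and 3.31 in empty vector cells. The 3 groups of levels did not overlap, and the order of the populations in TPA was opposite to that of OSM. With p-values adjusted over all probe sets it rose with TPA by 1.79 ± 0.14 (adjusted p = 1.54e-07) in EVI1-labelled cells and by 0.65 ± 0.14 (adjusted p = 0.00189) in empty vector cells. The difference between the responses was 1.14 ± 0.20 (adjusted p = 0.0133), and it was called without each of the 12 arrays in turn (0.98 to 1.28, largest adjusted p = 0.0447). Of its group means only that of EVI1-labelled cells in TPA, 5.08 ± 0.30, reached 5.07. The probe set 206359_at was called higher with TPA in EVI1-labelled cells (0.35 ± 0.11, adjusted p = 0.0225), and 214105_at gave no call. Over the median of the 4 probe sets SOCS3 rose with TPA in EVI1-labelled cells by 0.35 (adjusted p = 0.00656). Which part of the SOCS3 transcript each probe set reads was not tested.

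SOCS1, another inhibitor of JAK kinases, read between 4.99 and 5.52 on its brightest probe set, with no call in any comparison. TPA gave 0.02 ± 0.11 (adjusted p = 0.923) in EVI1-labelled cells and 0.13 ± 0.11 (adjusted p = 0.4) in empty vector cells. Its second probe set, 210001_s_at, read 5.20, 5.69 and 5.39 in EVI1-labelled cells in TPA, against 5.07, 5.03 and 4.80 in empty vector cells in TPA. These did not overlap, and EVI1-labelled cells were called higher by 0.46 ± 0.12 (adjusted p = 0.024). In ethanol the populations did not overlap on it either, without a call (0.26 ± 0.12, adjusted p = 0.41). The same probe set was called higher with TPA in EVI1-labelled cells (0.42 ± 0.12, adjusted p = 0.0109). In empty vector cells its TPA arrays also lay above its ethanol arrays, without a call (0.22 ± 0.12, adjusted p = 0.167). The difference between these responses was 0.20 ± 0.16 (adjusted p = 0.749), so they are not shown to differ. Of its group means only that of EVI1-labelled cells in TPA, 5.43 ± 0.25, reached 5.07. Over the median of its 4 probe sets SOCS1 rose with TPA by 0.26 in both EVI1-labelled cells (adjusted p = 0.0396) and empty vector cells (adjusted p = 0.0343).

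**Figure D3:**
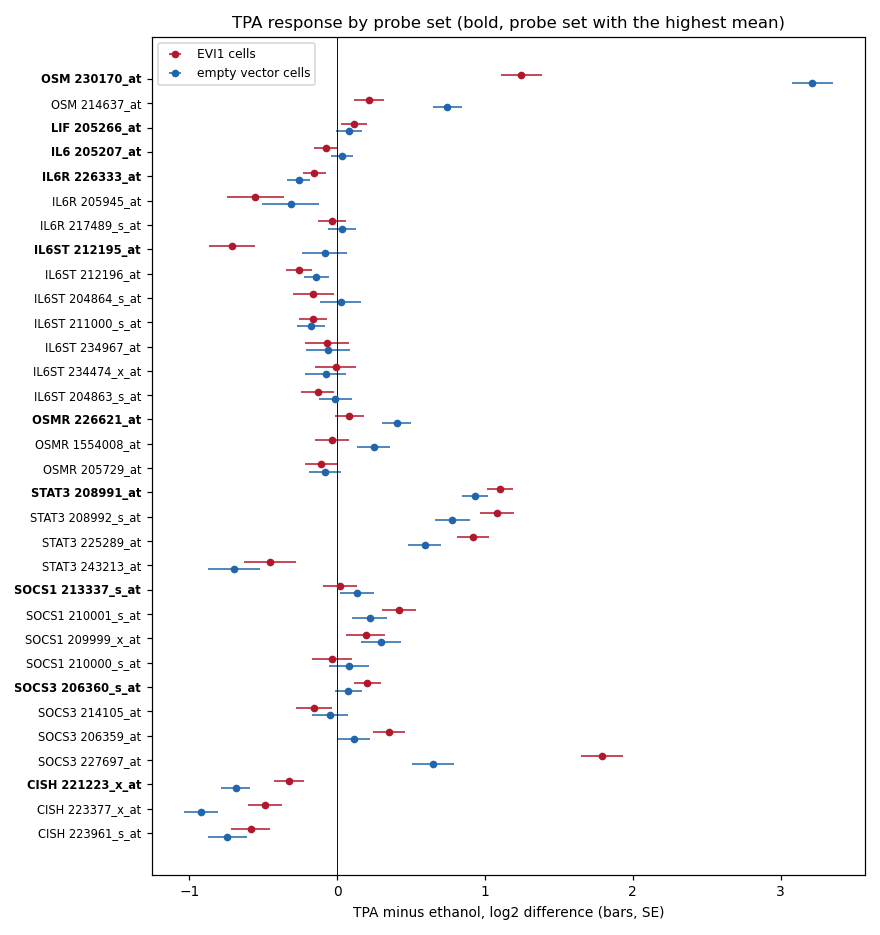
TPA response (x axis, log2 difference of TPA minus ethanol, bars are SE) of every single-gene probe set of the 10 genes (y axis), in EVI1-labelled and empty vector cells. Bold names mark the probe set that stands for the gene. SOCS3 227697_at lay at 1.79 and 0.65 in EVI1-labelled and empty vector cells, apart from the other 3 SOCS3 probe sets, and STAT3 243213_at lay at -0.45 and -0.70, opposite to the other 3 STAT3 probe sets.

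Counted over the 10 genes by their brightest probe sets, TPA in EVI1-labelled cells gave 4 calls, where 40.0% of all genes were called. OSM and STAT3 were higher (19.4% of all genes were) and IL6ST and CISH lower (20.6%). In empty vector cells TPA gave 5 calls, where 43.2% of all genes were called. OSM, STAT3 and OSMR were higher (20.7% of all genes were) and IL6R and CISH lower (22.5%). These shares are near the background, so the 10 genes as a set did not stand apart in the response to TPA. The TPA and ethanol arrays did not overlap for 6 of the 10 genes in EVI1-labelled cells, beside 46.6% of all genes, and for 5 in empty vector cells, beside 50.3%. The median change of the 10 was 0.05 in EVI1-labelled cells and 0.08 in empty vector cells, beside 0.00 and 0.02 over all genes.

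Between the populations in TPA 3 of the 10 genes were called, where 11.2% of all genes were. CISH was higher in EVI1-labelled cells (5.9% of all genes were) and OSM and IL6ST lower (5.3%), and the arrays did not overlap for 5 of the 10, beside 22.4% of all genes. In ethanol 0 of 10 were called by limma, where 3.27% of all genes were (1.32% higher and 1.95% lower in EVI1-labelled cells). By their brightest probe sets none of the 10 had an unadjusted p under 0.05 there, and the arrays of all 10 overlapped, where 22.0% of all genes did not. Among their other probe sets, the populations did not overlap in ethanol for IL6ST 212196_at, STAT3 243213_at and SOCS1 210001_s_at. These differed by -0.34 ± 0.09, -0.50 ± 0.17 and 0.26 ± 0.12 in that order. None was called over all probe sets (adjusted p = 0.0674, 0.233 and 0.41). By the brightest probe sets the difference between the responses was called for OSM alone, as smaller in EVI1-labelled cells. Of all genes, 1.98% were called for it (0.936% higher and 1.05% lower). IL6ST, OSMR and CISH had unadjusted p-values of 0.0127, 0.0392 and 0.0247 for it and were not called after the adjustment over all genes.

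The other genes of the pathway were grouped in 6 lists. Their counts with TPA stand beside 40.0% of all genes called in EVI1-labelled cells (19.4% higher, 20.6% lower). In empty vector cells they stand beside 43.2% (20.7% higher, 22.5% lower). None of the 5 other ligand genes measured (IL11, CNTF, CTF1, IL27 and EBI3) was called in any comparison, and their changes with TPA lay between -0.12 and 0.18 in both populations. Of 7 genes for receptors and for the proteases that shed them, 3 rose with TPA in EVI1-labelled cells, and 3 rose and 1 fell in empty vector cells. ADAM17, the protease that releases the soluble IL6 receptor, rose by 2.15 ± 0.08 (adjusted p = 8.74e-11) in EVI1-labelled cells and by 2.11 ± 0.08 (adjusted p = 7.07e-11) in empty vector cells. IL27RA, a receptor that pairs with gp130, rose by 1.73 ± 0.10 in EVI1-labelled cells and 1.63 ± 0.10 in empty vector cells. IL31RA fell in empty vector cells (-0.67 ± 0.21, adjusted p = 0.02), a call lost without replicate 2 or 3 of the TPA arrays or replicate 1 or 2 of the ethanol arrays of empty vector cells, with adjusted p of 0.0583, 0.102, 0.105 and 0.0538 in that order, and the median of its 3 probe sets was at -0.09 (adjusted p = 0.53). Neither list held a call between the populations.

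JAK kinases and other STAT factors rose with TPA in 5 of 8 cases in each population with none lower. Of all genes, 19.4% rose in EVI1-labelled cells and 20.7% in empty vector cells. The median of the list was 0.49 in EVI1-labelled cells and 0.45 in empty vector cells, beside 0.00 and 0.02 over all genes. STAT6, the factor of interleukin 4 signalling, rose by 1.44 ± 0.09 in EVI1-labelled cells and 1.71 ± 0.09 in empty vector cells. The kinase JAK1 rose by 0.85 ± 0.07 in EVI1-labelled cells and 0.68 ± 0.07 in empty vector cells, and TYK2, a related kinase, by 0.84 ± 0.10 in EVI1-labelled cells and 0.97 ± 0.10 in empty vector cells. In TPA JAK1 was higher in EVI1-labelled cells by 0.29 ± 0.07 (adjusted p = 0.0206), a call lost without replicate 2 of EVI1-labelled cells (adjusted p = 0.0688) or replicate 3 of empty vector cells (0.0815) in TPA, with those 2 groups fitted alone (0.114), and over the median of its 5 probe sets (0.07, adjusted p = 0.903).

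Of 13 other inhibitors, 3 rose and 6 fell with TPA in EVI1-labelled cells, where 40.0% of all genes were called. In empty vector cells 2 rose and 4 fell, near the 43.2% of all genes called there. SOCS2, an inhibitor of growth hormone and STAT5 signalling, read 5.95, 5.87 and 5.59 in EVI1-labelled cells in TPA, against 8.04, 7.99 and 8.27 in ethanol. SOCS2 levels in empty vector cells were 6.36, 6.68 and 6.39 in TPA, against 8.43, 8.03 and 8.33 in ethanol. Like CISH it was low in both TPA groups, by -2.30 ± 0.13 (adjusted p = 5.37e-09) in EVI1-labelled cells and -1.79 ± 0.13 (adjusted p = 5.41e-08) in empty vector cells. Between the populations in TPA it went against CISH and was lower in EVI1-labelled cells by 0.67 (-0.67 ± 0.13, adjusted p = 0.00435). SOCS7 fell in both populations, by 0.52 (-0.52 ± 0.11) in EVI1-labelled cells and 0.55 (-0.55 ± 0.11) in empty vector cells, a call lost there over the median of its 3 probe sets (-0.41, adjusted p = 0.0678).

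PTPN6, the phosphatase SHP-1 that acts on JAK kinases, rose by 1.44 ± 0.12 (adjusted p = 1.46e-07) in EVI1-labelled cells and 0.81 ± 0.12 (adjusted p = 3.83e-05) in empty vector cells. In TPA PTPN6 was higher in EVI1-labelled cells by 0.79 ± 0.12 (adjusted p = 5.36e-04), with 10.44, 10.87 and 10.75 in EVI1-labelled cells against 9.83, 10.02 and 9.83 in empty vector cells. The 2 populations did not overlap in TPA. SOCS4 rose with TPA in EVI1-labelled cells (0.45 ± 0.08, adjusted p = 4.04e-04), was higher there than in empty vector cells in TPA (0.64 ± 0.08, adjusted p = 1.93e-04) and differed in response (0.57 ± 0.12, adjusted p = 0.0234). Its other probe set was called the opposite way for TPA in EVI1-labelled cells, and the call on the response was lost without any 1 of 7 arrays (adjusted p of 0.0507 to 0.0741) and over the median of both probe sets (0.22, adjusted p = 0.606). PTPN1, another phosphatase of JAK kinases, rose by 0.26 ± 0.08 (adjusted p = 0.0211) in EVI1-labelled cells and 0.34 ± 0.08 (adjusted p = 0.0037) in empty vector cells, although the median of its 4 probe sets was at -0.11 in empty vector cells.

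Of 18 genes known as targets of STAT3 or STAT5 in some cell type, 9 rose and 3 fell with TPA in each population, and the median was 0.81 in EVI1-labelled cells and 0.92 in empty vector cells. Many of these targets respond to other factors too. The counts stand beside 40.0% of all genes called with TPA in EVI1-labelled cells and 43.2% in empty vector cells. A2M, a protease inhibitor, rose by 7.42 ± 0.27 in EVI1-labelled cells and 6.85 ± 0.27 in empty vector cells, with ethanol means below 5.07. The repressor BCL6 rose by 3.76 ± 0.08 in EVI1-labelled cells and 3.87 ± 0.08 in empty vector cells. VEGFA, the vascular growth factor, fell by 1.01 (-1.01 ± 0.16) in EVI1-labelled cells and 1.03 (-1.03 ± 0.16) in empty vector cells, and the kinase PIM2 by 0.50 (-0.50 ± 0.09) and 0.64 (-0.64 ± 0.09) in the same order.

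PIM1, a survival kinase induced by STAT5 and STAT3, shared the blunted response of OSM but differed from it in ethanol. It read 10.00, 10.12 and 9.99 in EVI1-labelled cells in TPA, against 8.37, 8.26 and 8.42 in EVI1-labelled cells in ethanol. PIM1 levels in empty vector cells were 10.39, 10.64 and 10.41 in TPA, against 7.65, 7.79 and 7.74 in ethanol. No 2 of the 4 groups overlapped. PIM1 was lower in EVI1-labelled cells in TPA (-0.44 ± 0.09, adjusted p = 0.0048), higher there in ethanol (0.62 ± 0.09, adjusted p = 0.00118), and differed in response by -1.07 ± 0.13 (adjusted p = 7.24e-04). PIM1 was the one target of the 18 called for the difference between the responses. IL4R was lower in EVI1-labelled cells in TPA (-0.47 ± 0.11, adjusted p = 0.0105), a call lost without replicate 2 of EVI1-labelled cells in TPA (0.0525). IRF1 was higher in EVI1-labelled cells in TPA (0.44 ± 0.10, adjusted p = 0.0109) and in ethanol (0.42 ± 0.10, adjusted p = 0.0348), the last lost without any 1 of 5 arrays (adjusted p of 0.058 to 0.17).

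**Figure D4:**
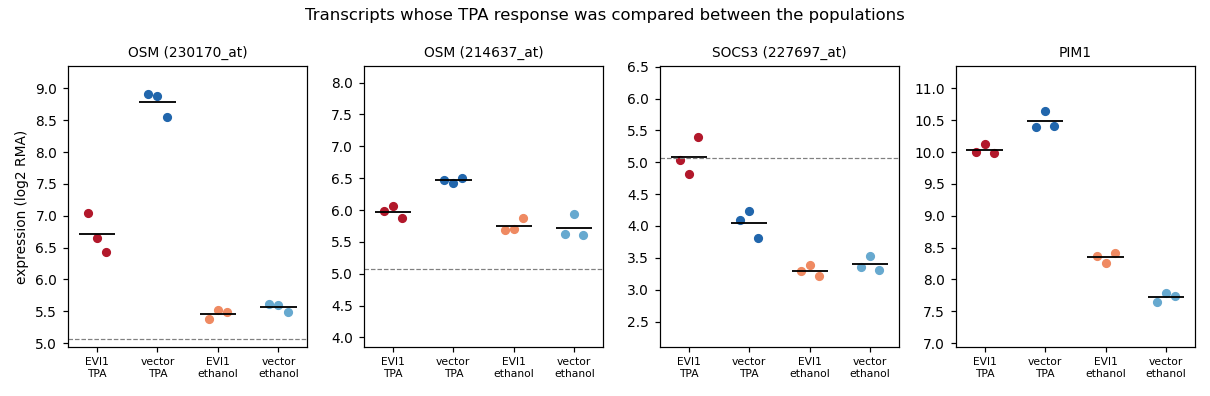
Level on every array (y axis, log2 RMA expression, equal spans) of both OSM probe sets, SOCS3 227697_at and PIM1 in the 4 groups (x axis), with group means as bars and the lowest array median, 5.07, as a dashed line. In TPA, OSM and PIM1 were lower in EVI1-labelled than in empty vector cells and SOCS3 227697_at was higher.

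Receptors that signal through STAT5 rose with TPA in 3 of 8 cases and fell in 1 in each population. TPA calls covered 40.0% of all genes in EVI1-labelled and 43.2% in empty vector cells, so this list lay near the background. CSF2RB, the common beta chain of the GM-CSF, interleukin 3 and interleukin 5 receptors, rose by 2.42 ± 0.09 in EVI1-labelled cells and 2.22 ± 0.09 in empty vector cells. CSF2RA, the GM-CSF receptor alpha chain, rose by 0.96 ± 0.15 in EVI1-labelled cells and 1.71 ± 0.15 in empty vector cells. CSF3R, the G-CSF receptor gene, fell by 0.61 (-0.61 ± 0.13) in EVI1-labelled cells and 0.87 (-0.87 ± 0.13) in empty vector cells. Between the populations in TPA, CSF2RA was lower in EVI1-labelled cells (-0.86 ± 0.15, adjusted p = 0.00167) and CSF2RB higher (0.44 ± 0.09, adjusted p = 0.00786). The CSF2RB call was lost when those 2 groups were fitted alone (0.44, adjusted p = 0.0516). For CSF2RA the difference between the responses, -0.75 ± 0.21, missed the threshold (adjusted p = 0.097).

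**Figure D5:**
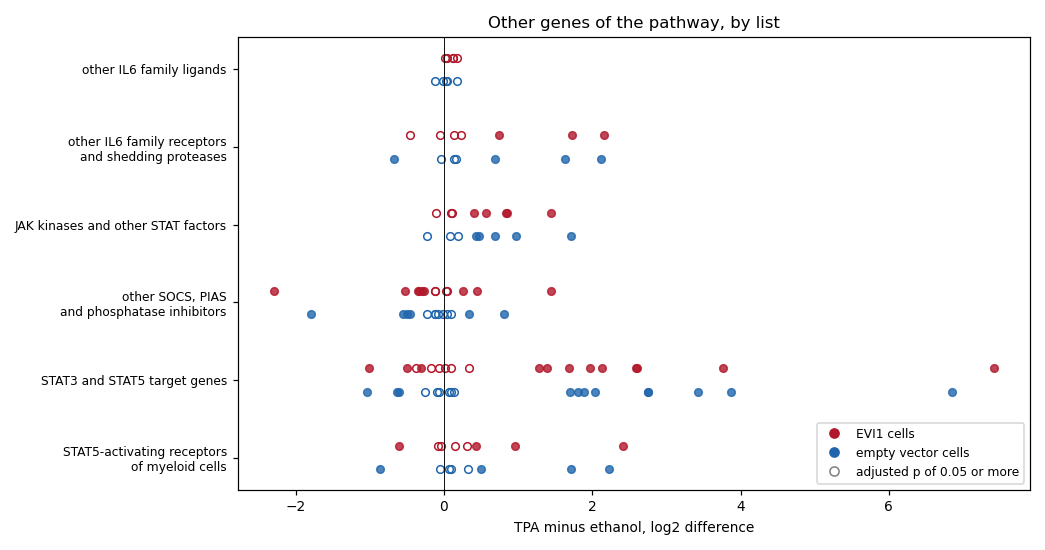
TPA response (x axis, log2 difference of TPA minus ethanol) of each measured gene in the 6 lists of other pathway genes (y axis), in EVI1-labelled and empty vector cells. Filled points had an adjusted p under 0.05. The 5 other ligand genes lay between -0.12 and 0.18, and the target list reached 7.42 in EVI1-labelled cells with A2M.

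The genes most like OSM over the 12 arrays, among 13108 genes with a group mean above 5.07, were PIKFYVE, a lipid kinase, ADORA3, an adenosine receptor, the chemokine CCL20, the intestinal glucosidase MGAM and the glycosyltransferase MGAT5. Their Pearson's r with OSM was 0.990, 0.987, 0.986, 0.986 and 0.983, a description with no test, since the 12 points are 4 groups and share their arrays. CCL20 was at 8.11 ± 0.45 in EVI1-labelled cells and 10.59 ± 0.18 in empty vector cells in TPA, against 6.01 ± 0.18 in EVI1-labelled cells and 6.07 ± 0.07 in empty vector cells in ethanol. MGAM was at 5.67 ± 0.11 in EVI1-labelled cells and 7.58 ± 0.06 in empty vector cells in TPA, against 3.83 ± 0.18 in EVI1-labelled cells and 4.16 ± 0.10 in empty vector cells in ethanol. Both had the order of OSM, with the EVI1-labelled cells in TPA at a middle level. PIKFYVE had that order over a narrow range, at 9.64 ± 0.07 in EVI1-labelled cells and 10.18 ± 0.05 in empty vector cells in TPA, against 9.29 ± 0.05 in EVI1-labelled cells and 9.36 ± 0.08 in empty vector cells in ethanol. For the brightest SOCS3 probe set, which spanned 0.50 over all arrays, the highest r was 0.872, with IGF1, followed by NHLRC4, TOM1L2, PARVA and APCDD1L-DT, down to 0.866.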

How the data were processed

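Total RNA (250 ng) was labelled by 3′ in vitro transcription for Affymetrix arrays, per the labels' protocols. The authors deposited log2 values from the RMA method; the submitters' processing notes name Expression Console 1.3. RMA corrects background, quantile normalizes and combines probes, which hides any change shared by most genes. The sources used here do not say if all 12 arrays were normalized in 1 run.

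Of 54675 probe sets, 62 were controls and 41091 others named a single gene in the platform annotation. They gave 19775 genes. The groups were fitted as 4 means with limma 3.58.1 in R 4.3.3 (two-sided moderated tests with 8 residual and 5.22 prior degrees of freedom, Benjamini-Hochberg at 0.05), checked on simulated data. Over all genes the SE had a median of 0.105 between groups and 0.149 for the difference between responses, and the number of arrays limits this precision. All comparisons with the same group share its arrays.

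The 10 genes and the lists were chosen with earlier results of these data known. All 10 are named, and from each pathway list up to 2 calls each way per comparison. Likeness was Pearson's r over the 12 arrays. Alternatives were the median over a gene's probe sets, other probe sets, a filter on dim genes, the replicate number as a block, a variance trend, centred arrays, fits of the compared groups alone and leaving out each array. The background level 5.07 was chosen after the data were seen. Promoter windows and motif searches used RefSeq sequence of GRCh38.p14.

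Groups share replicate numbers in the labels. Once group means were subtracted, same-numbered arrays correlated at 0.415, 0.130 and 0.151 between EVI1-labelled and empty vector cells in TPA, all over 0.1, which the data alone mark as paired. A fit with the number as a block changed no call on the 10 genes there. In every other pair of groups at least 1 of the 3 was below 0.1. Even so, the same number gave the highest correlation for all 3 replicates in each pair of groups that shared a population or a treatment. In the pairs that shared neither, it did so for 1 of 3. Some pairing over the whole design is therefore not excluded.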

Additional observations from a re-analysis of the deposited data

Results flagged for a closer look

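The difference between the TPA responses of the populations passed its own test for OSM, PIM1, SOCS4 and CD14 by their brightest probe sets and for the dimmest SOCS3 probe set. OSM responded less in EVI1-labelled cells, by -1.97 ± 0.20 (SE, adjusted p = 2.64e-04), with all 3 EVI1-labelled arrays in TPA below all 3 empty vector arrays. PIM1 also responded less, by -1.07 ± 0.13 (adjusted p = 7.24e-04), with the same order in 3 of 3 arrays. Unlike OSM, it was also higher in EVI1-labelled cells in ethanol (0.62 ± 0.09), and was lower there in TPA by a smaller amount (-0.44 ± 0.09). SOCS4 responded more, by 0.57 ± 0.12 (adjusted p = 0.0234), again with no overlap in TPA, but 1 of its 2 probe sets was called the opposite way for TPA in EVI1-labelled cells. CD14 responded less, by -2.06 ± 0.27 (adjusted p = 0.00179). SOCS3 227697_at responded more, by 1.14 ± 0.20 (adjusted p = 0.0133), with 3 of 4 group means below 5.07. No explanation was tested.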

How the results depend on the processing

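Of 975 values of the 10 genes under the alternatives, 928 kept their direction, where called, and their side of the threshold, 26 lost the call, 14 gained one and 7 changed sign. A further 60 uncalled values changed sign and are counted among the 928. Without 1 array at a time, the number of genes called was 3 to 4 for TPA in EVI1-labelled cells, 4 to 5 in empty vector cells, 2 to 3 between the populations in TPA, 0 in ethanol and 1 for the difference in response. With the replicate block these counts were 4, 5, 3, 0 and 1, and OSM differed between the populations in TPA by -2.07 (adjusted p = 3.36e-06), so the paired fit changed no call among the 10. With the next probe set of each gene the counts were 5, 3, 4, 0 and 0 in the same order. The 7 sign changes of called values came with other probe sets or their median. For TPA in EVI1-labelled cells STAT3 243213_at gave -0.45. For TPA in empty vector cells STAT3 243213_at gave -0.70, IL6R 217489_s_at 0.033 and OSMR 205729_at -0.083, none of them with a group mean above 5.07. Between the populations in TPA the IL6ST median gave 0.013, 234967_at 0.08 and 234474_x_at 0.10. With the compared groups alone CISH missed the threshold in TPA (adjusted p = 0.0726), and 1241 of all genes were called there against 2214. For the pathway genes named, an alternative chosen after seeing the data, 763 of 790 values stayed, 26 lost the call and 1 changed sign, the PTPN1 median at -0.11 for TPA in empty vector cells. The cause was not tested. With the filter on dim genes, those below it gave no value. Probe sets near background limit IL6, LIF, OSMR, SOCS1 and SOCS3.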
